A study of Mus musculus with 14 samples.

Results

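In mouse G1ER erythroblasts, 176 protein-coding genes had less than 50% of their length under peaks of elongating RNA polymerase II in Chd7 knockout (KO) cells and at least 50% in wild-type (WT) cells. They were chosen from the 19304 protein-coding genes of 2 kb or more on the mouse build GRCm38, by the percentage of the gene span that lay under peaks of each polymerase list, called S2P coverage here. Glul, Ctbp2, Cpa3 and Il4 met the same limits and were left out by name. The coverage of both genotypes thus chose the genes, and the coverage values given here describe them and test nothing. The genes are called WT-only genes below.

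RNA polymerase II carries a long tail that is phosphorylated at different residues as a gene is transcribed. Phosphorylation at serine 2 (S2P), laid down by the kinase complex P-TEFb among others, accumulates as the polymerase moves into the gene body and is strongest towards and beyond the end of the gene. ChIP-seq with an antibody to this form therefore marks the bodies of genes being transcribed. CHD7 is an ATP-driven chromatin remodeller, and GATA2 and RUNX1 are transcription factors of blood stem and progenitor cells that also bind many genes of the erythroid line.

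The study comprised 14 samples of the G1ER line, 8 immunoprecipitated and 6 input. G1ER cells lack endogenous GATA1 and carry a GATA1 fusion protein that estradiol switches on, in both genotypes. The KO cells were Chd7-/- and the WT cells carried intact Chd7, and all were grown with erythropoietin and stem cell factor. GATA2 and RUNX1 each had 1 library per genotype, and S2P had 2 replicates per genotype that were deposited as 1 combined peak list. The labels name estradiol for 48 hours for a differentiation assay and do not say whether the chromatin came from treated cells, nor how many KO clones were used. Each target thus had a single list in each genotype, and replicates could not be compared. No difference between KO and WT was tested, and every value below describes these lists.

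The S2P lists held 165206 peaks over 123 Mb in KO and 163620 peaks over 115 Mb in WT. Their median summits rested on 35 fragments in KO and 34 in WT, and the lowest local background was 7.07 fragments in KO and 7.00 in WT. The factor lists held 80611 KO and 68199 WT peaks for GATA2, and 35281 KO and 28952 WT peaks for RUNX1. The erythroblast label was checked on S2P coverage of marker genes. Tal1 (99.01% in KO and 98.7% in WT), Gfi1b (100% and 99.1%), the transferrin receptor gene Tfrc (98.6% and 99.2%) and Gata1 (64.6% and 65.9%) were covered in both genotypes. Genes of late maturation were low or at 0 in both: Alas2 had 22.6% in KO and 18.5% in WT, and Slc4a1 had 0 in each list. The myeloid and lymphoid lists held 0 genes covered in WT. The mast cell list held 2, besides its genes Cpa3 and Il4, which were covered in WT and left out by name.

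The WT-only genes lay near the limit in both genotypes, with a median coverage of 45.7% in KO (17.0% to 49.98%) and 54.45% in WT (50.1% to 73.0%). The median difference, KO minus WT, was −11.1 percentage points, with an interquartile range of −15.9 to −6.50. It was 20 points or more for 21 genes, 10 to 20 for 77, 5 to 10 for 44 and under 5 for 34. In KO 97 genes kept 45% or more, and 17 lay under 35%. With the 4 genes left out by name, this class held 0.932% of all genes of 2 kb or more and 5.58% of the 3225 genes covered in WT. In the opposite direction 264 genes were covered in KO only, 1.37% of all genes and 7.98% of those covered in KO. S2P coverage was lower in KO at 37.2% of the 9986 genes with any coverage and at 44.6% of the 3045 genes covered in both, whose median differences were 0.67 and 0.00 points. Among genes covered in both, 125 were 10 or more points lower in KO and 152 were 10 or more points higher.

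**Figure D1:**
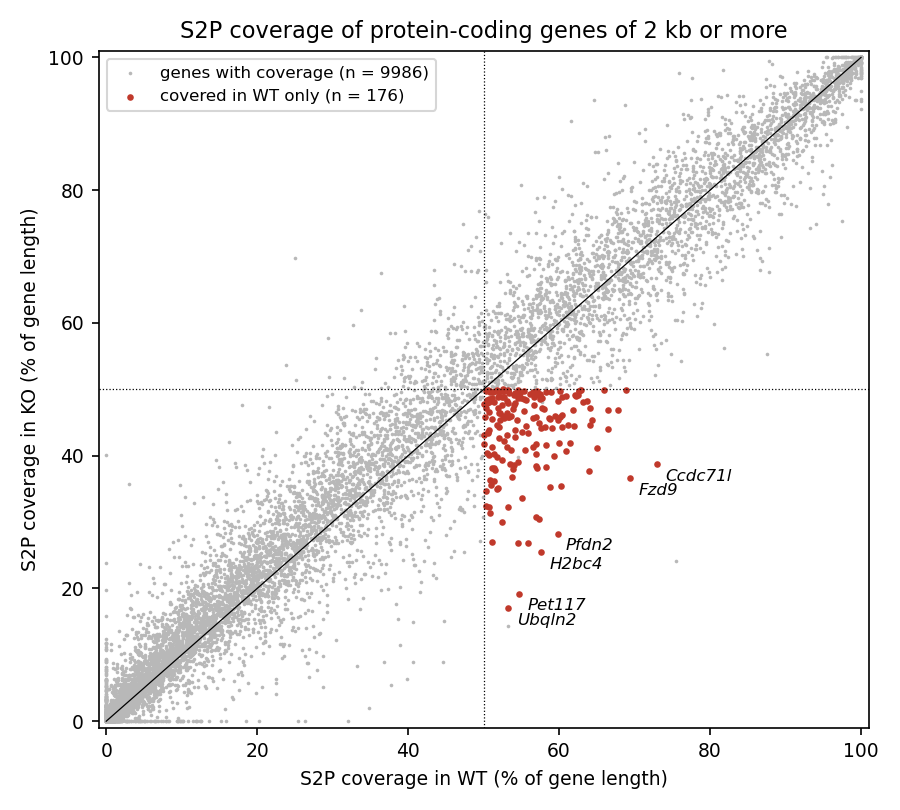
S2P coverage of each gene in KO (vertical axis, % of gene length) against WT (horizontal axis, % of gene length). Red points are the 176 WT-only genes, grey points the other genes among the 9986 with any coverage, dotted lines mark 50% and the solid line marks equal coverage; most red points lie close to the corner where the dotted lines cross, and the 6 labelled genes lie well below it.

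The nearest genes lay within a point of the limits on either side. Ruvbl1, an ATPase of several remodelling and assembly complexes, had 49.98% in KO and 52.6% in WT, Ube2m had 49.97% and 65.9%, and Gm41408 had 49.96% and 62.9%. On the WT side the nearest were Dnaaf5 (41.7% in KO and 50.1% in WT), Pdcd6ip (47.8% and 50.1%) and Med28 (43.2% and 50.1%). Bud23 (50.2% in KO and 62.8% in WT), Slc25a36 (50.3% and 53.1%) and Alkbh4 (50.3% and 59.5%) were left out for their KO coverage. Polr3f (33.8% in KO and 49.9% in WT), Zfp799 (30.8% and 49.9%) and Usp35 (48.8% and 49.8%) were left out for their WT coverage.

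The WT-only genes were short. Their median length was 10532 bp, from 2048 bp at Rrs1 to 96310 bp at the kinase gene Stk24, against 14703 bp for genes covered in both and 23098 bp for genes covered in KO only. Stk24, Arnt, Spred1, Pdcd6ip and Pcmt1 were the longest. The 2514.6 kb that they span held 966.2 kb (38.4%) under S2P peaks of both genotypes, 158.6 kb (6.31%) under KO peaks alone and 407.5 kb (16.2%) under WT peaks alone.

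The lowest KO coverage was at Ubqln2, which encodes a shuttle factor that delivers ubiquitinated proteins to the proteasome (chromosome X, 153498232 to 153501562). It was covered for 17.0% in KO, against 53.3% in WT. Its strongest S2P summit was weak in both lists, with 36 fragments in KO and 37 in WT. Pet117, which encodes a cytochrome c oxidase assembly factor (chromosome 2, 144368983 to 144373337), had 19.2% in KO and 54.7% in WT. It overlaps Kat14, and the lists carry no strand that could assign the signal to either. Ccdc71l (chromosome 12, 32378789 to 32382943) had 38.7% in KO and 73.0% in WT, the highest WT coverage of the 176. Fzd9, a Frizzled receptor for Wnt ligands (chromosome 5, 135248938 to 135251047), had 36.6% in KO and 69.4% in WT. It held 1 S2P peak in KO and 4 in WT, and its strongest summit reached 242 fragments in each list. Its neighbour Baz1b, 2807 bp away, was covered for 92.4% in KO and 92.9% in WT. Without strand, signal of the neighbour and of Fzd9 cannot be told apart. H2bc4, a replication-dependent histone H2B gene (chromosome 13, 23684199 to 23692480), had 25.4% in KO and 57.6% in WT. Pfdn2, a subunit of the prefoldin chaperone that passes unfolded actin and tubulin to the chaperonin (chromosome 1, 171344954 to 171359254), had 28.2% in KO and 59.8% in WT. These 6 genes were 31.6 to 36.3 points lower in KO.

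**Figure D2:**
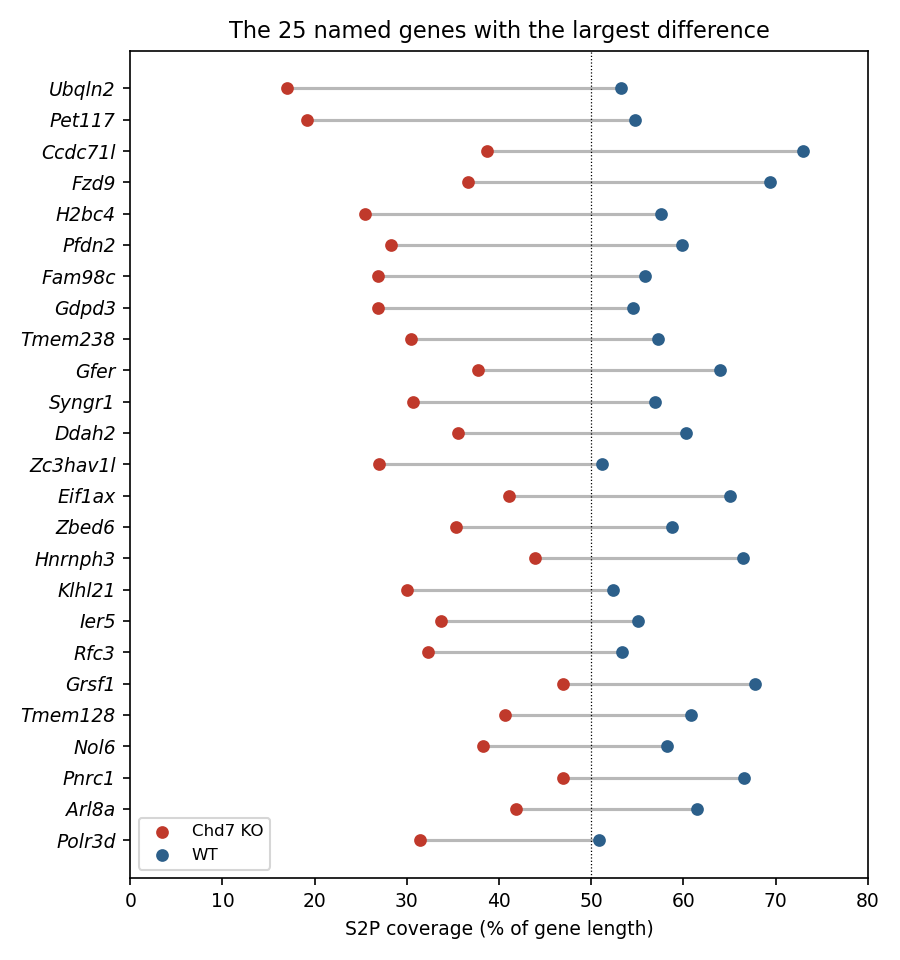
S2P coverage (% of gene length) in Chd7 KO (red) and WT (blue) of the 25 WT-only genes with the largest difference, predicted and clone-named genes passed over; each row is 1 gene and each point is 1 list. KO points lie left of WT points by the choice of the genes, and the difference goes down from 36.3 points at Ubqln2 to 19.5 points at Polr3d.

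The coverage that was lower in KO lay mainly in the middle of the genes. Strand was known for 148 of the 176 genes from the RefSeq promoter table, and these were cut into 10 equal segments, numbered from start to end. From segment 1 to segment 10, mean coverage in KO was 24.4%, 22.5%, 27.0%, 28.4%, 28.9%, 39.98%, 52.2%, 67.3%, 72.5% and 76.9%. In WT it was 29.2%, 33.0%, 43.8%, 47.8%, 49.5%, 56.4%, 65.8%, 73.5%, 78.4% and 79.8%. In both genotypes coverage was higher towards the gene end, and in KO it was below 30% in segments 1 to 5. The difference was −4.83 points in segment 1, −20.6 in segment 5 and −2.93 in segment 10. Segments 3 to 7 averaged 35.3% in KO and 52.7% in WT, and segments 8 to 10 averaged 72.2% and 77.2%. In the 2508 genes covered in both the mean differences per segment ran from −3.24 to 2.44 points. In the 214 genes covered in KO only with known strand, the largest difference was 16.7 points, in segment 6. Cut at the midpoint, the difference was larger before it in 96 of the 148 WT-only genes and after it in 52, and coverage was lower in KO on both sides in 112. These midpoint counts were not made for other genes. In the genes covered in KO only the difference was 3.5 points over segments 1 and 2, 13.0 over segments 3 to 7 and 10.5 over segments 8 to 10. The averages give every gene the same weight, and the rule fixed that KO coverage was lower. Its place along the gene is described, and whether that place also follows from the choice of the genes was not tested.

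**Figure D3:**
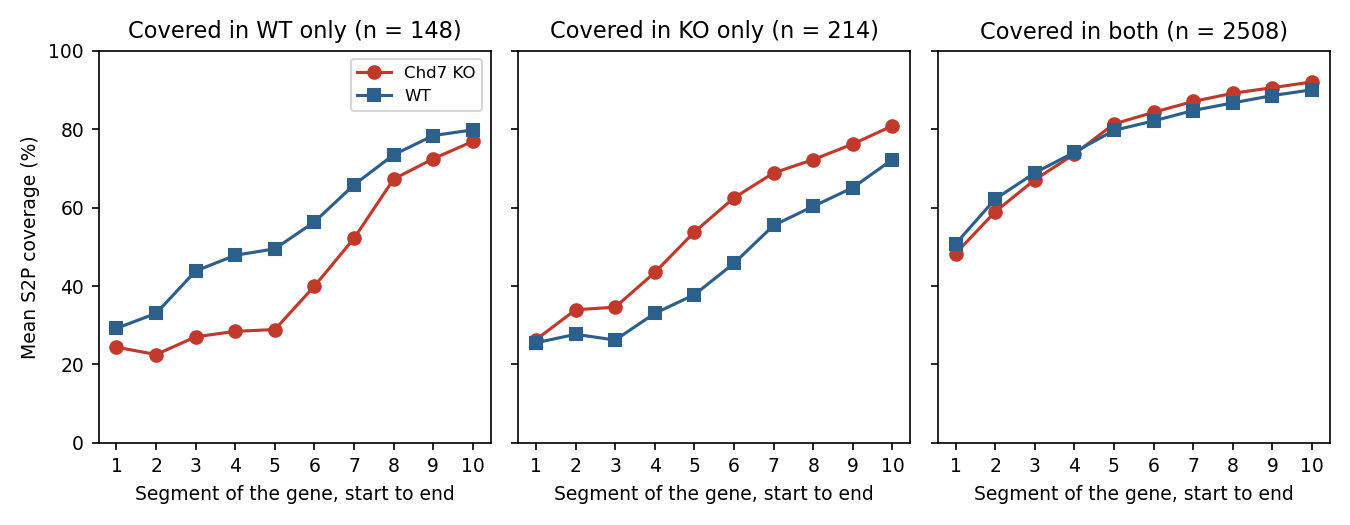
Mean S2P coverage (%) in each of 10 equal segments of the gene, from start to end, in Chd7 KO (red circles) and WT (blue squares), for genes of known strand; the left panel holds the 148 WT-only genes, the middle panel the 214 KO-only genes and the right panel the 2508 genes covered in both. In the left panel the curves are farthest apart in segments 3 to 7, 35.3% in KO and 52.7% in WT, and meet near the gene end.

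Outside the genes the mean coverage was alike in KO and WT. In the 5 kb before the start, mean coverage was 17.5% in KO and 17.3% in WT, and in the 5 kb after the end it was 62.4% in KO and 62.0% in WT. The region after the end was lower in KO at 70 genes, higher at 62 and equal at 16. At the 2508 genes covered in both it was lower at 823, higher at 1244 and equal at 441. At the 214 genes covered in KO only it was lower at 65 and higher at 122. Lower values were thus more frequent after the WT-only genes than after these, and this difference was not tested. For each WT-only gene the nearest protein-coding gene of 2 kb or more that did not overlap it was taken, at a median distance of 4216.5 bp. This neighbour was lower in KO in 65 cases (36.9%) and higher in 107, with a median difference of 0.72 points. That share is near the 37.2% over all genes with coverage. Another protein-coding gene overlapped 38 of the 176, and there the peaks cannot be assigned to 1 gene. Signal that runs in from a close neighbour cannot be told apart either, as the lists carry no strand.

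Of the 25 genes of known strand with the largest S2P difference, 18 differed more over segments 3 to 7 than over segments 8 to 10, and 7 differed more over the end. The same count was not made for other genes. Pfdn2 averaged 7.40% in KO and 51.0% in WT over segments 3 to 7, and 52.9% and 73.6% over segments 8 to 10. Fam98c had 0.0% in KO and 55.7% in WT over segments 3 to 7, whereas its last 3 segments had 89.4% and 93.3%. Klhl21, a substrate adaptor of a cullin ubiquitin ligase, had 11.8% in KO and 55.1% in WT in the middle, with 80.5% and 81.1% at the end. Fzd9 had 13.2% in KO and 53.4% in WT in the middle, and its last 3 segments were fully covered in both. The 7 with the other layout were Pet117, Ccdc71l, Rfc3, Arl8a, Psmc4, Mrpl20 and Tmem199. Rfc3, a subunit of the clamp loader of DNA replication, had 46.4% in KO and 55.1% in WT in the middle, and 30.3% and 77.8% at the end. Pet117 had 1.3% in KO and 58.0% in WT at the end.

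**Figure D4:**
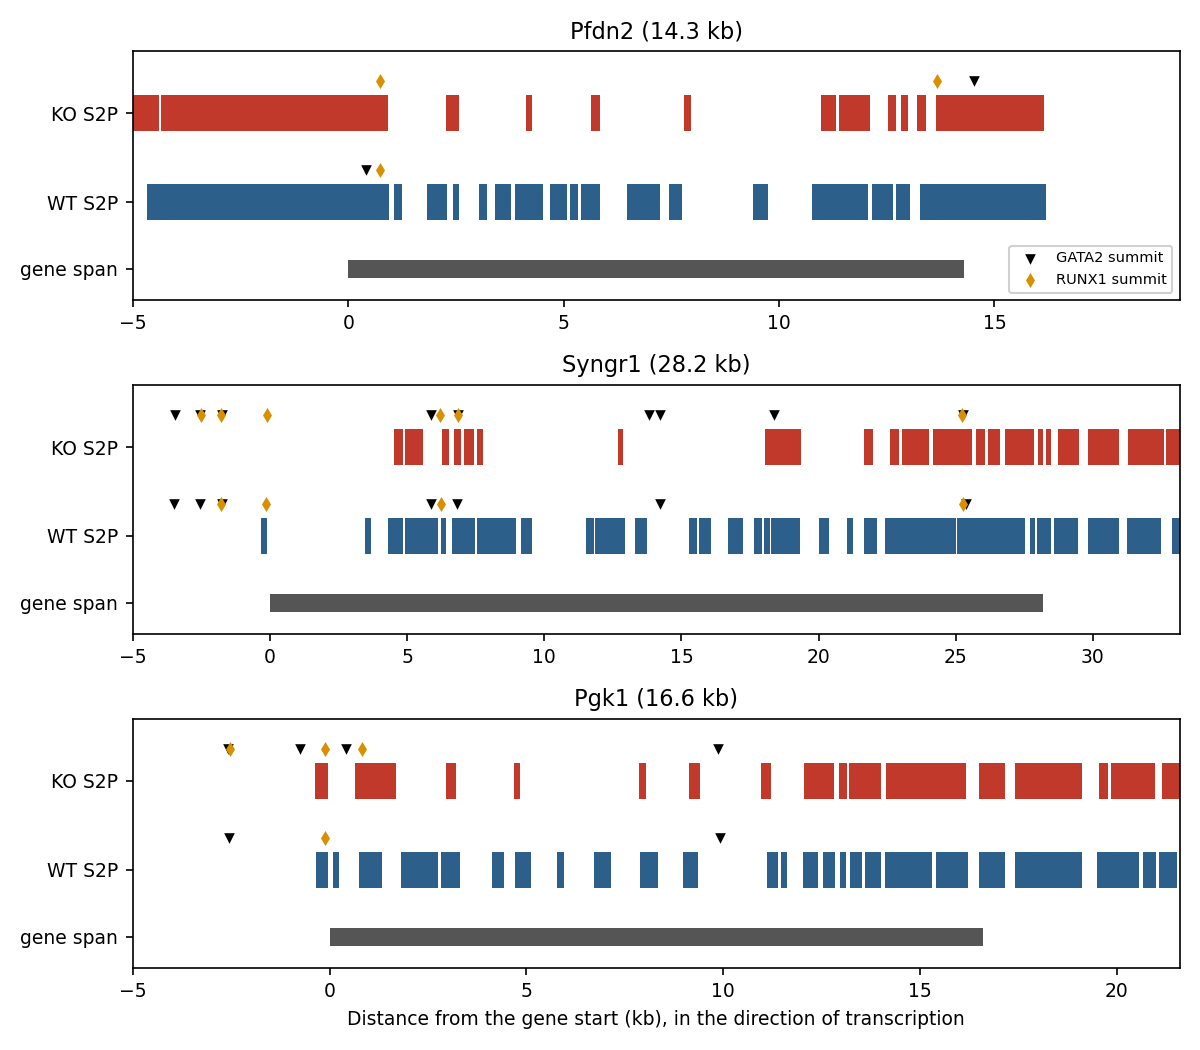
Maps of S2P peaks (bars) at Pfdn2, Syngr1 and Pgk1, with KO in red above WT in blue and the gene span in grey, against the distance from the gene start in kb, reading in the direction of transcription with 5 kb on either side. Black triangles mark GATA2 summits and orange diamonds RUNX1 summits; in each gene the KO row has fewer and narrower bars in the middle, and both rows have long stretches near the gene end.

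By its median, the strongest S2P signal in the genes was not lower in KO. The strongest summit held a median of 121 fragments in KO (36 to 294) and 112.5 in WT (37 to 297). Divided by the lowest background of its list, it was lower in KO at 66 genes and higher at 110, with a median log2 KO over WT of 0.05. This count was not made for other genes, so it cannot be called particular to these. Both the number and the width of peaks differed, in the lists that chose the genes. A WT-only gene held a median of 8 S2P peaks in KO and 10 in WT, with fewer in KO at 111 genes, the same number at 27 and more at 38. The longest unbroken stretch had a median of 1748.5 bp in KO and 2015.5 bp in WT, and was shorter in KO at 108 genes. Of the 1832 KO peaks in these genes 185 (10.1%) overlapped no WT peak, and of the 2234 WT peaks 663 (29.7%) overlapped no KO peak. In the genes covered in both these shares were 11.1% in KO and 9.94% in WT. In the genes covered in KO only, chosen the opposite way, they were 24.7% in KO and 10.55% in WT. The 663 unmatched WT peaks had a median of 31 fragments, a −log10 q of 4.90 and a width of 231 bp, and together covered 182.8 kb. WT peaks that did overlap a KO peak had medians of 39 fragments, 7.71 and 426 bp. Of the 407.5 kb under WT peaks alone, 183.2 kb lay in WT peaks that overlapped no KO peak and 224.3 kb in WT peaks that overlapped a KO peak for part of their width.

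By their known roles, 123 of the 176 genes were put into 16 groups after their values had been seen, so the groups order the description and test nothing. Genes of the transcription machinery itself were among them. Ccnt2, a cyclin of P-TEFb, had 49.2% in KO and 57.5% in WT. Nelfcd, a subunit of the factor NELF that holds polymerase paused, had 48.1% in KO and 63.2% in WT. Polr3d, a subunit of RNA polymerase III, had 31.4% in KO and 50.9% in WT. The Mediator genes Med4 (46.1% in KO and 60.4% in WT), Med19 (49.6% and 50.9%) and Med28, the TFIID gene Taf11 (49.7% and 52.7%) and Atxn7l3 of the SAGA deubiquitinase (48.9% and 60.4%) completed the 8. Their median difference was −9.93 points, close to that of all 176 genes.

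Of transcription factor genes, Tfap4 was covered for 35.1% in KO and 51.9% in WT. Erf, an ETS repressor, had 38.0% in KO and 53.9% in WT, and Klf6, a zinc finger factor of the early response, had 48.4% and 55.7%. Arnt, the common partner of hypoxia and xenobiotic receptors, had 48.6% in KO and 55.4% in WT. Gatad1 had 48.3% and 63.7%, and Mier1 49.4% and 53.4%. Ier5, an immediate-early gene (chromosome 1, 155096367 to 155099636), had 33.7% in KO and 55.1% in WT, and Ier5 and Klf6 were the 2 WT-only genes among 16 early and stress response genes covered in WT. Zbed6, an intronless gene within Zc3h11a, had 35.4% in KO and 58.8% in WT.

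Genes of the mitochondrion numbered 24 in 3 of the groups. Subunits of the mitochondrial ribosome encoded by 5 genes were WT-only, 15.6% of the 32 mitochondrial ribosomal protein genes covered in WT. Mrpl20 had 38.2% in KO and 57.1% in WT, Mrpl27 had 45.4% and 64.4%, and Mrpl50 had 49.7% and 62.6%. Mrpl9 had 44.5% in KO and 55.6% in WT, and Mrpl30 had 45.8% and 53.2%. Grsf1, an RNA-binding protein of mitochondrial RNA granules, had 46.9% in KO and 67.8% in WT, and Mrm3, a methyltransferase of mitochondrial ribosomal RNA, had 49.2% and 56.1%. Subunits of the respiratory chain and ATP synthase encoded by 6 genes were WT-only, 14.0% of the 43 covered in WT. Cox5a (44.1% in KO and 57.7% in WT), Cox6a1 (49.7% and 58.9%) and Cox7a2l (49.2% and 62.1%) are named for cytochrome c oxidase, Ndufa3 (49.2% and 54.1%) and Ndufv3 (45.8% and 53.3%) belong to complex I, and Atp5o (46.6% and 50.8%) to ATP synthase. These shares stand against 5.58% of all genes covered in WT, and no test of the difference was made. A gene well above 50% in both lists cannot be WT-only, so the shares also depend on how many genes of each list lay near 50%. Over all genes of each list with coverage the median difference was 0.55 points for mitochondrial ribosomal proteins and −0.54 points for the respiratory chain, less than a point for either list as a whole.

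Further mitochondrial genes included Gfer, a sulfhydryl oxidase of the intermembrane import path (chromosome 17, 24693190 to 24696156), with 37.7% in KO and 63.9% in WT. Timm17a (45.9% in KO and 60.2% in WT) and Pam16 (49.8% and 54.6%) encode parts of the inner membrane import machinery. Micos10, of the complex that shapes the cristae, had 44.8% in KO and 57.4% in WT. Cycs, the gene of cytochrome c, had 49.7% in KO and 52.1% in WT, and Pdha1 of pyruvate dehydrogenase had 48.6% and 51.2%. The last 2 lay close to the limit in both genotypes.

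Genes of protein turnover formed a group of 12, with a median difference of −14.3 points. Beside Ubqln2 it held the proteasome subunits Psmc4 (44.7% in KO and 64.1% in WT) and Psmd13 (46.8% and 55.3%), 2 of the 25 proteasome genes covered in WT. Klhl21 had 30.1% in KO and 52.4% in WT, and Trim8 32.3% and 50.7%. The F-box genes Fbxo22 (43.8% in KO and 54.1% in WT) and Fbxo9 (47.7% and 54.0%) were also in the group. Traf6, a ubiquitin ligase of Toll-like receptor signalling, had 35.6% in KO and 51.0% in WT.

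In ribosome assembly and translation, Nol6 had 38.3% in KO and 58.2% in WT, and the helicase gene Ddx54 had 40.8% and 55.4%. Eif1ax, an initiation factor that helps to select the start codon (chromosome X, 159372178 to 159389621), had 41.1% in KO and 65.0% in WT. Eif2b2, of the exchange factor for eIF2, had 41.3% in KO and 56.5% in WT. The 67 cytosolic ribosomal protein genes covered in WT gave no WT-only gene, against 5.58% of all genes covered in WT. A gene well above 50% in both lists cannot be WT-only, so this count also depends on how high these genes were covered. Over all genes of this list with coverage the median difference was 0.00 points. The 17 aminoacyl-tRNA synthetase genes covered in WT gave none either, a count near the 5.58%. In RNA splicing, Hnrnph3 (chromosome 10, 63014664 to 63023980) had 44.0% in KO and 66.5% in WT, Snrpc of the U1 particle had 49.7% and 62.7%, and Smn1, needed to assemble such particles, had 38.8% and 53.5%. Hnrnph3 and Snrpc were 2 of 47 splicing factor genes covered in WT.

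Genes of cell division and DNA replication included Ccnb2, a mitotic cyclin (47.6% in KO and 52.5% in WT), Birc5, the survivin gene of the chromosomal passenger complex (45.7% and 56.5%), and Spc24 of the kinetochore (47.2% and 57.7%). Rfc3 had 32.3% in KO and 53.3% in WT, and Pold2, of DNA polymerase delta, had 41.5% and 58.2%. Ccnb2 was the 1 WT-only gene among 22 cell cycle genes covered in WT. Both replication-dependent histone genes of the fixed list that were covered in WT, H2bc4 and H2bc23, were WT-only, against 5.58% of all genes covered in WT. That list held only 5 genes, so its share rests on few genes. H2bc23 had 43.4% in KO and 55.9% in WT, and its neighbour H4bc24 had 47.1% and 64.1%. Before the midpoint H2bc23 had 86.8% in KO and 87.5% in WT, and H4bc24 84.8% and 87.3%. After the midpoint H2bc23 had 0% in KO and 24.2% in WT, and H4bc24 9.50% and 40.8%. The histone genes have near-identical copies, so reads could be divided among them, and the same holds for Trp53rkb, Amd2 and Rbm12b1.

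Among metabolic enzymes, Pgk1, the phosphoglycerate kinase of glycolysis and a common reference gene (chromosome X, 106187100 to 106203699), had 36.3% in KO and 50.8% in WT. It was the 1 WT-only gene of 11 glycolysis genes and of 23 housekeeping genes covered in WT. Ppat, which catalyses the committed step of purine synthesis, had 40.9% in KO and 53.6% in WT. Ddah2 had 35.5% in KO and 60.3% in WT, and Gnmt, a methyltransferase that consumes S-adenosylmethionine, had 46.8% and 61.8%. No gene of sterol synthesis and uptake, 19 of which were covered in WT, was WT-only, a count near the 5.58% of all genes covered in WT. Over all genes of that list with coverage the median difference, KO minus WT, was 5.47 points.

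Membrane traffic was represented by the vesicle protein gene Syngr1 (30.7% in KO and 56.9% in WT), by Arl8a, a small GTPase of lysosome movement (41.8% and 61.5%), and by the endoplasmic reticulum and endosome GTPases Rab1a (45.4% and 59.8%), Rab5c (43.5% and 50.6%) and Rab14 (49.7% and 51.6%). In signalling, Rac1, a GTPase of the actin cytoskeleton, had 41.9% in KO and 60.04% in WT, and Spred1, an inhibitor of the Ras pathway, had 45.8% and 56.9%. The receptor gene Gpr182 had 47.2% in KO and 50.3% in WT, and Fzd9 was the 1 WT-only gene of 3 Wnt pathway genes covered in WT.

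Blood genes among the 176 were few, as were those covered in WT, so that their counts lie near the 5.58% of all genes covered in WT. Ncoa4, the cargo receptor that takes ferritin to autophagy and frees iron for heme (chromosome 14, 32159879 to 32179855), was the 1 WT-only gene of 27 erythroid genes covered in WT (3.7%), with 48.2% in KO and 53.1% in WT. The stem and progenitor list (12 covered in WT), the megakaryocyte list (3), the mast cell list (2) and the RUNX family and its partners (3) gave no WT-only gene. The mast cell list was counted without its genes Cpa3 and Il4, which met the WT-only limits and were left out by name. Of 27 chromatin remodelling genes covered in WT, Ruvbl1 was WT-only. Heat shock and chaperone genes (22), interferon response genes (4) and the non-blood list (2) gave none. The remaining lists gave Birc5 and Cycs of 11 apoptosis genes, Zfp280b and Zfp622 of 56 zinc finger genes named Zfp, Slc35a4 and Slc7a6os of 46 genes matched by the solute carrier prefix, and Gpr182 of 4 receptor genes. Slc7a6os carries that prefix as the opposite-strand neighbour of a carrier gene. The lists were written with earlier results of these data known, and their counts are a description.

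RUNX1 bound nearly all of these genes in both genotypes, as it did the genes covered in both, and its peaks were more numerous in KO. A gene counted as bound when a summit lay within it or within 5 kb of it. RUNX1 was present at 169 genes in KO (96.0%) and 162 in WT (92.05%), 161 of them in both. The shares were 96.5% in KO and 93.0% in WT at genes covered in both, and 57.8% and 54.9% at all genes of 2 kb or more. The WT-only genes held 431 RUNX1 peaks in KO and 330 in WT. The ratio was 1.31, with an exact 95% interval of 1.13 to 1.51 that covers counting error only. More RUNX1 peaks in KO were found at 74 genes (42.0%) and fewer at 12 (6.82%), against 49.1% and 8.77% of the genes covered in both and 26.2% and 7.53% of all genes of 2 kb or more. The ratio was 1.30 at genes covered in both and 1.24 over all genes of 2 kb or more. Both shares at the WT-only genes were below those at genes covered in both, and this difference was not tested. Of the KO peaks 120 (27.8%) overlapped no WT peak, with a median of 23 fragments. Of the WT peaks 15 (4.55%) overlapped no KO peak, with a median of 18. At genes covered in both the shares were higher, 31.3% of KO peaks and 7.83% of WT peaks, and the difference was not tested.

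The genes with the strongest RUNX1 sites were bound in both genotypes. Ddx54 had 277 fragments in KO (245 to 312) and 266 in WT (235 to 300), Chpf 265 and 232, and Aagab 250 and 237. At Ddx54 the KO and WT summits lay more than 200 bp apart. The median strongest summit was 82 fragments in KO and 67 in WT. Scaled by the lowest background of each list, the median log2 KO over WT was 0.19 at the 161 genes bound in both genotypes, beside 0.25 at genes covered in both. The strongest summit was 1.5-fold or more higher in KO at 24 genes (14.9%), against 12.6% of genes covered in both and 12.8% of all genes of 2 kb or more. It was 1.5-fold or more lower at 1 (0.621%), against 0.177% and 2.05%. That 1 gene was Ccnb2 (chromosome 9, 70407689 to 70421554). Its RUNX1 summit, just outside the start of the gene, held 34 fragments in KO (23.5 to 47.5) and 93 in WT (75.1 to 114), a log2 of −1.48. The 2 summits lay 11 bp apart, and GATA2 at the same gene had 78 fragments in KO and 53 in WT. The next lower values, short of 1.5-fold, were Gpr182 (22 fragments in KO and 29 in WT), Tmem238 (52 and 65), Atox1, a copper chaperone gene (69 and 86), and Micos10 (50 and 62).

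The largest RUNX1 values above WT were at Grsf1 (115 fragments in KO and 46 in WT), Tmem214 (83 and 35), Gatad1 (85 and 36), Rbm12b1 (54 and 24) and Cox6a1 (134 and 67), between 1.97-fold and 2.46-fold. All of these but Rbm12b1 lie on chromosome 5. The 15 WT-only genes of that chromosome had a median log2 RUNX1 of 0.74 and held 9 of the 24 genes past 1.5-fold, and the other chromosomes had a median of 0.17. For GATA2 the medians were 0.55 on chromosome 5 and 0.12 elsewhere. S2P coverage did not set this chromosome apart, since 6.49% of its genes covered in WT were WT-only. The part of chromosome 5 in the factor values was not tested beyond these values.

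RUNX1 was bound in KO alone at 8 genes (4.55%, against 3.81% of genes covered in both and 4.32% of all genes of 2 kb or more), with the strongest summits at Sac3d1 (51 fragments), Tmem128 (44), LOC115488470 (39), 2310057M21Rik (35) and Zc3hav1l (33). It was bound in WT alone at Rdh14, a retinol dehydrogenase gene, with 15 fragments (8.40 to 24.7). Binding in WT alone was found at 0.361% of genes covered in both and 1.44% of all genes of 2 kb or more. Neither list had RUNX1 at 6 genes, Cldn7, Gnmt, Traf6, Amd2, Ctu1 and Rrh, named here after their values were seen.

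RUNX1 summits lay at most of the promoters. The promoter table gave windows from 250 bases before to 50 bases after a start for 148 of the 176 genes. A RUNX1 summit lay inside such a window at 112 genes in KO (75.7%) and 108 in WT (73.0%), 105 of them in both. At genes covered in both the shares were 73.4% in KO and 71.1% in WT, and at all genes of 2 kb or more with a window 37.1% and 34.4%. GATA2 summits lay there at 7 genes in KO (4.73%) and 6 in WT (4.05%), against 7.89% and 6.5% of genes covered in both and 4.18% and 3.57% of all genes of 2 kb or more with a window. The windows were scanned on both strands for 4 words, AGATAA for GATA factors, TGTGGT for RUNX factors, CCGGAA for ETS factors and TATAAA for the TATA box. CCGGAA and its reverse complement can share their CCGG core. Of the 175 windows of these genes 7 held AGATAA, 20 TGTGGT (11.4%), 65 CCGGAA (37.1%) and 14 TATAAA. In the 32851 windows of the whole table the shares were 11.2%, 16.8%, 14.9% and 13.6%, and in windows of genes covered in both they were 5.51%, 12.6%, 34.7% and 6.50%. The GC content had a median of 61.3%, against 61.7% at genes covered in both and 52.7% in the whole table. The median ratio of observed to expected CpG was 0.80 in the WT-only genes, 0.83 at genes covered in both and 0.38 in the whole table. In these shares and ratios the WT-only genes were closer to the genes covered in both than to the whole table. TGTGGT stood in 14 of the 112 genes with a promoter RUNX1 summit in KO and in 12 of 108 in WT, and a match is only a description.

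A RUNX word in the bases before the start and a RUNX1 summit in the window of both genotypes were found together at 11 genes, at 3 to 187 bases from each other. At 6 of these the distance was at most 70 bases in both lists, and 5 of their windows are shown here to let the words be read beside the summits. The sixth gene, Trp53rkb, has a near-identical copy and is not shown. The 5 were picked after their values were seen. Each gives the 250 bases before a RefSeq start (GRCm38.p6), 5′ to 3′ on the strand of the gene, with TGTGGT, its reverse complement ACCACA, and AGATAA in capitals. They lie at chr9:21265035-21265284 (+ strand, Atg4d), chr5:76951579-76951828 (− strand, Ppat), chr12:32378539-32378788 (+ strand, Ccdc71l), chr7:3617123-3617372 (+ strand, Ndufa3) and chr14:32165539-32165788 (+ strand, Ncoa4, a start inside the gene).
Atg4d: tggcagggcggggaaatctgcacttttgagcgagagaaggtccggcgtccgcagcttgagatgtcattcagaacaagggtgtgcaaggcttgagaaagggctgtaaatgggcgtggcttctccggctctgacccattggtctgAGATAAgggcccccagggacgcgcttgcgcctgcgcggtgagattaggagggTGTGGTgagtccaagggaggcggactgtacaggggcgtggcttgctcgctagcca
Ppat: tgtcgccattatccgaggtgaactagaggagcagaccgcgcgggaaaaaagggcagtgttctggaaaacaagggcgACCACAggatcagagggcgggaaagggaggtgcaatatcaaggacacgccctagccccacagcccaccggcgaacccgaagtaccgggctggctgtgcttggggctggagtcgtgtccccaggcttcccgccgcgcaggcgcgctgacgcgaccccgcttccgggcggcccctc
Ccdc71l: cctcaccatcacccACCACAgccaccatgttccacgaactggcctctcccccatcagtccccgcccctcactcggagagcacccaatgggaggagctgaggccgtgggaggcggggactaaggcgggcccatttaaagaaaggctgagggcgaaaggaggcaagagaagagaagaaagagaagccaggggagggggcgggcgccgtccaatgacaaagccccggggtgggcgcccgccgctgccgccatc
Ndufa3: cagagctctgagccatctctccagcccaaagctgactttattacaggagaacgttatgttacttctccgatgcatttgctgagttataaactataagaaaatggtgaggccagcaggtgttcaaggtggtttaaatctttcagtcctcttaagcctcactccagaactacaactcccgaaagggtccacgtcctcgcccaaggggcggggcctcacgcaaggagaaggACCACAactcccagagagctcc
Ncoa4: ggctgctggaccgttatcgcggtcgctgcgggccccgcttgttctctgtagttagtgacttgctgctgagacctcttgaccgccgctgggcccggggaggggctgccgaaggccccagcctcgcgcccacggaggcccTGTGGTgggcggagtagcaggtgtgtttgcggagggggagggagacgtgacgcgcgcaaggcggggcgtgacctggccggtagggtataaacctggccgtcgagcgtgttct

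Atg4d encodes a protease that processes the ATG8 proteins of autophagy, and its window held both words. The GATA2 summit lay 1 base from the centre of AGATAA in KO and 5 bases in WT, with 137 fragments in KO (115 to 162) and 100 in WT (81.4 to 122). The RUNX1 summit lay 24 bases from TGTGGT in KO and 12 in WT, with 83 fragments in KO and 65 in WT. The S2P coverage of the gene was 49.5% in KO and 54.9% in WT. At Ppat the RUNX1 summit lay 46 bases from its RUNX word in KO and 21 in WT, with 240 fragments in KO (211 to 272) and 167 in WT (143 to 194). At Ndufa3 it lay 22 bases away in KO and 3 in WT, with 57 and 53 fragments. At Ccdc71l it lay 44 bases away in KO and 70 in WT, with 50 and 37 fragments. At Ncoa4 this summit held 99 fragments in KO and 106 in WT, at 51 and 6 bases. A RUNX1 summit in both genotypes was required of these 5 windows, so its presence in KO follows from the choice. Its fragment number was higher in KO than in WT except at Ncoa4.

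GATA2 also had more peaks in KO, at the WT-only genes as over all genes. It was present at 146 genes in KO (82.95%) and 138 in WT (78.4%), 133 of them in both. The shares were 88.0% in KO and 83.0% in WT at genes covered in both, and 66.5% and 61.7% at all genes of 2 kb or more. The WT-only genes held 442 GATA2 peaks in KO and 372 in WT. The ratio was 1.19 (1.03 to 1.37), beside 1.23 at genes covered in both and 1.19 over all genes of 2 kb or more, so the excess was that of the whole list. More GATA2 peaks in KO were found at 65 genes (36.9%) and fewer at 25 (14.2%), against 47.4% and 10.5% of genes covered in both and 33.9% and 11.8% of all genes of 2 kb or more. The median strongest summit was 55 fragments in KO and 45 in WT, and the median log2 KO over WT was 0.15. The strongest GATA2 sites were at Gucd1 (269 fragments in KO and 247 in WT), Stk24 (268 and 258), Ncoa4 (266 in each list) and Ier5 (226 and 232).

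The strongest GATA2 summit was 1.5-fold or more higher in KO at 21 of the 133 genes (15.8%, against 12.6% of genes covered in both and 12.1% of all genes of 2 kb or more). It was 1.5-fold or more lower at 3 (2.26%, against 1.17% and 4.45%). The 3 were Cldn7, a tight junction gene, with 15 fragments in KO and 27 in WT, Gnmt (13 and 19) and Pfdn2 (12 and 17), all weak sites. At Pfdn2 the KO and WT summits lay at opposite ends of the gene, 14104 bp apart. Klhdc2 (86 fragments in KO and 119 in WT) and Mtx3 (114 and 151) were the next lower, short of 1.5-fold. The highest value was Pak1ip1, with 219 fragments in KO and 16 in WT, at sites 19215 bp apart. The WT list held a summit of 199 fragments within 200 bp of the KO one, beyond the 5 kb limit of the gene, so this 12.9-fold value comes from the edge of the window. Rfc3 had 42 fragments in KO (30.3 to 56.8) and 12 in WT (6.20 to 21.0), with 4 GATA2 peaks in KO and 1 in WT, and no WT summit within 200 bp of the strongest KO site. Rac1 (76 fragments in KO and 34 in WT), Hnrnph3 (41 and 19) and Tmem214 (64 and 31) followed. Only for Hnrnph3 of these 3 did the strongest sites differ, by 11458 bp.

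**Figure D5:**
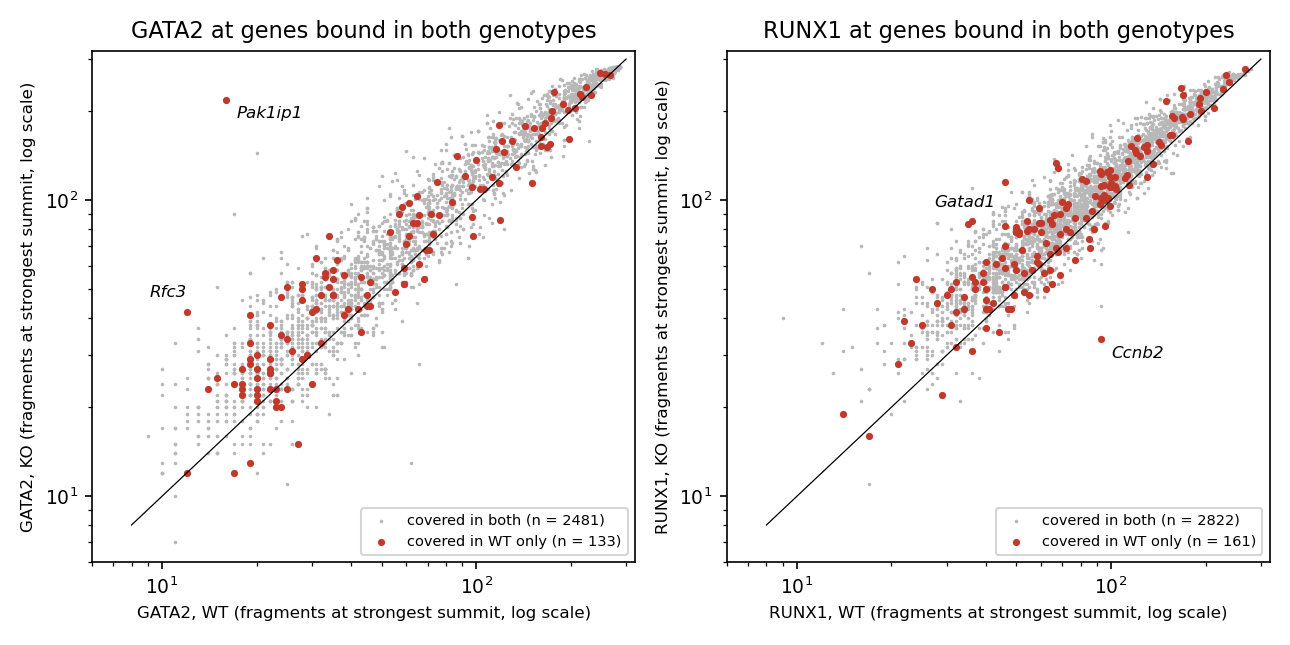
Fragments at the strongest summit per gene in KO (vertical axis, log scale) against WT (horizontal axis, log scale), for GATA2 (left) and RUNX1 (right), at genes bound in both genotypes; red points are WT-only genes (133 and 161) and grey points genes covered in both (2481 and 2822). The line marks equal fragment numbers, not scaled for depth. Most points of both colours lie on or above it, and Ccnb2 (34 in KO and 93 in WT) stands below it for RUNX1.

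GATA2 was bound in KO alone at 13 genes (7.39%, against 6.5% of genes covered in both and 7.74% of all genes of 2 kb or more), led by Ddx54 (30 fragments), Aagab (28), Rer1 (26), Smn1 (22) and Mrm3 (22). It was bound in WT alone at 5 (2.84%, against 1.51% and 3.01%), Spc24 (28 fragments, 18.6 to 40.5), Ndufa3 (23), Zfp280b (19), Snrnp35 (18) and Ubqln2 (16). Each of these summits had 30 fragments or fewer, near the median of 24 in the KO list and 23 in the WT list. Of the KO peaks 27.7% and of the WT peaks 14.6% overlapped no peak of the other genotype, against 27.8% and 11.6% at genes covered in both.

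The size of the S2P difference and the factor values were set side by side. The 98 genes with S2P coverage 10 or more points lower in KO had GATA2 and RUNX1 peak ratios of 1.24 and 1.33, and the other 78 had 1.13 and 1.27. Both factors had more peaks in KO at 32 of the 176 genes (18.2%), against 26.2% of genes covered in both and 13.7% of all genes of 2 kb or more. Both had fewer at 4 (2.27%), against 1.31% and 1.7%. Of the 25 named genes with the largest S2P difference, 23 had RUNX1 in both genotypes. The strongest summit held more fragments in KO at 18 of them, with a median scaled log2 KO over WT of 0.42, beside 131 of 161 and 0.19 for all WT-only genes bound in both. Among the 18 were Syngr1 (82 fragments in KO and 46 in WT), Zbed6 (94 and 59) and Fzd9 (217 and 150). It held fewer in KO at the other 5, Pfdn2 (57 in KO and 61 in WT), Fam98c (48 and 49), Gdpd3 (63 and 77), Tmem238 and Pnrc1 (120 and 130). GATA2 held more fragments in KO at 14 of the 18 genes with a summit in both lists and fewer at 3, beside 99 and 30 of all 133 WT-only genes bound in both. The scaled log2 was above 0 at 12 of the 18 and below 0 at 6, with a median of 0.21. For the 133 genes it was above 0 at 85 and below 0 at 48, with a median of 0.15.

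The WT-only genes were spread over the genome. They lay on each autosome and on X, with 15 on each of chromosomes 5 and 7, and made up from 1.33% (chromosome 18) to 11.3% (chromosome 14, 12 of 106) of the genes covered in WT on a chromosome, with 10.7% (6 of 56) on X. Within 100 kb of each other lay 8 pairs, and none of the pairs overlapped.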

How the data were processed

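The data were ChIP-seq peak lists of G1ER cells, 1 per target and genotype, without headers. Bowtie2 2.2.1, MACS2 2.1.0 and the build GRCm38 (mm10) are named in the submitters' processing notes, without roles or settings. The authors deposited for each peak a score, a fold enrichment at the summit (a ratio to local background), a −log10 p, a −log10 q and a summit offset. Both replicates of S2P share 1 list per genotype, and how they were combined is not given in the sources used here. No total read counts come with the lists.

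The pileup of fragments at each summit was recovered from the deposited fold and −log10 p, and came out whole for 100% of summits in all 6 lists at a tolerance of 0.005, with a pileup scale of 0.961 for the KO S2P list. The recovery was tested on simulated data. Fragments are capped near 300 by the smallest peak widths, at 282 to 298, so the strongest summits understate differences. Intervals are exact 95% intervals and cover counting error only, as PCR copies were not told apart by molecular identifiers. For folds, fragments were divided by the lowest background of the list.

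Genes came from the RefSeq table of GRCm38.p6, which has neither strand nor exons, so exons, introns and UTRs are not given. Strand and promoters came from the RefSeq promoter table, matched for 148 of 176 genes. Factor peaks were assigned with the summit in the gene or within 5 kb. Peaks sharing 1 bp counted as overlapping. The genes and lists were chosen with earlier results of these data known. Genes were named by rule: the 25 largest differences, the 10 lowest KO coverages, the 5 longest, those nearest the limits, every gene of a fixed list, and the extremes of each factor. Further genes were named for their role after their values were seen. Python 3.11.15, pandas 2.3.3, numpy 2.4.6, scipy 1.17.1 and matplotlib 3.10.9 were used. Some genes of the rule and of the fixed lists are not reported here.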

Additional observations from a re-analysis of the deposited data

How the results depend on the processing

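The 176 genes became 40, with a median difference of −19.1 points, when KO coverage had to be under 40%. Of the 176, other limits of 40% and 60% in both lists kept 40 and 33, joining S2P peaks across 300 bp kept 94, and S2P peaks with −log10 q of at least 3 kept 141. Peak ratios stayed within 1.14 to 1.25 for GATA2 and 1.27 to 1.44 for RUNX1 under every alternative run. Counts of strongest summits past the limit moved more. GATA2 higher in KO (21 genes) became 3 with KO coverage under 40%, 33 with joined peaks and 4 at 2-fold. GATA2 lower in KO (3 genes) became 1 at the 40% limit, with KO coverage under 40%, with genes of 5 kb or more or without scaling, 0 with summits in the gene only or at 2-fold, and 6 with summits within 10 kb. RUNX1 higher in KO (24 genes) became 7 with KO coverage under 40%, 15 without chromosome 5 and 4 at 2-fold. RUNX1 lower in KO (1 gene, Ccnb2) became 0 at the 60% limit, with KO coverage under 40%, with the stricter S2P peaks or with the top 150000 S2P peaks, and 3 with summits in the gene only. Fewer genes entered under the stricter limits; the other causes were not tested. Chosen after seeing the data, comparing only strongest summits within 200 bp of each other gave 16 and 2 for GATA2 and 20 and 1 for RUNX1. No paired analysis was possible because the S2P replicates were deposited as 1 combined list per genotype and the factors had 1 library each, so no replicate could be left out either. Summits of under about 20 fragments are near the limit of the lists, and gains or losses there may lie within counting error.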
